A study of Mus musculus with 6 samples.

Results

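The Zic genes described here are Zic1, Zic2, Zic4 and Zic5, which encode zinc-finger transcription factors. They were taken as every probe whose RefSeq accession maps to one of these symbols, which gave 6 probes for 4 genes, out of 55646 probes and 20274 named genes on the array. Zic1 was represented by 2 probes (A_51_P194230 and A_55_P2009774), Zic4 by 2 (A_52_P502228 and A_55_P2152637), Zic2 by 1 (A_55_P1962523) and Zic5 by 1 (A_55_P2003693). Their expression was read in epiblast stem cells (EpiSCs) of mouse strain 129/Sv, a pluripotent cell type that comes from the postimplantation epiblast. These were kept under epiblastic maintenance culture (EpiSC) or moved to a neural plate developmental culture for 1 day (NPC1) or 2 days (NPC2), with no genetic change named in the labels. Each group held 2 cultures, A and B, and all came from a common seed culture; a p-value here reflects the spread between such sister cultures, part of which may be technical, and not between lines or animals. Each culture's total RNA was hybridised to its own 1-colour array on a single slide. In such bulk RNA, fewer cells of a type and less RNA per cell cannot be told apart.

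Zic proteins carry a row of C2H2 zinc fingers closely related to those of the Gli and Glis proteins, and act as transcriptional activators or repressors. Zic2 and Zic5 are expressed in the epiblast and early neural plate, and reduced Zic2 function causes holoprosencephaly, a failure of the forebrain to divide at the midline. Zic1 and Zic4 are known from the dorsal neural tube and the cerebellum. The genes lie in pairs: in the RefSeq gene order Zic1 stands directly beside Zic4, and Zic5 is separated from Zic2 by the long noncoding RNA gene 2610035F20Rik.

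The RefSeq promoter windows (GRCm38.p6, from 250 bases before to 50 after the start of the gene, written 5′ to 3′ on the gene's own strand) are shown for Zic1, which holds the probe with the highest rise among the members, for its neighbour Zic4, whose probes were not above background, and for Zic5, which was lower on day 2 than in EpiSC. They lie at chr9:91365719-91366018 (Zic1, minus strand), chr9:91368722-91369021 (Zic4, plus strand) and chr14:122465609-122465908 (Zic5, minus strand), and capitals mark motif matches.
Zic1 promoter: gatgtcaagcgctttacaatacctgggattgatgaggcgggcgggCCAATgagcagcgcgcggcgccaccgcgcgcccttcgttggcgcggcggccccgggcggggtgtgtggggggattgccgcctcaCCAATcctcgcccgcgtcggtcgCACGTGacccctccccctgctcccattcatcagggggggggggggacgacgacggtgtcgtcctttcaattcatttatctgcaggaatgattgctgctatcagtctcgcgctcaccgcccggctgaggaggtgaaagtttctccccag
Zic4 promoter: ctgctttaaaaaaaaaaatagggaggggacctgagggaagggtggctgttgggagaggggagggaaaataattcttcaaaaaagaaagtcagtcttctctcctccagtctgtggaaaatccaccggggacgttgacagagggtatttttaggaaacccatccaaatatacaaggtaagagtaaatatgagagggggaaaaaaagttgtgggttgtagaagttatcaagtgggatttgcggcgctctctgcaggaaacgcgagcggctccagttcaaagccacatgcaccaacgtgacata
Zic5 promoter: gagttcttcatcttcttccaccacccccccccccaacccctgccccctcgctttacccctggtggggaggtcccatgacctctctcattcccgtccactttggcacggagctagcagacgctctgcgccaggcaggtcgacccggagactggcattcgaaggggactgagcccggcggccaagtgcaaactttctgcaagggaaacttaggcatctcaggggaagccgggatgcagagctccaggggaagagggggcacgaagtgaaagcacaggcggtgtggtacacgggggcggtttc
The Zic1 window held 31 CG dinucleotides and 65.3% G and C, the Zic5 window 15 and 62.7%, and the Zic4 window 8 and 46.0%, against medians of 7 and 52.7% over 32841 windows of the same length. Each window was searched on both strands for TAATCC (bound by Otx factors), ATGCAAAT (POU octamer), ACAAAG and ACAATG (SOX), CAGCAGG (Zic), GACCACCCA (Gli), CACGTG (E-box), CCAAT and TATAAA, and the matches found do not overlap one another. Zic1 held 1 CACGTG at position -98 and 2 CCAAT at positions -205 and -121 from the gene start. CACGTG was present in 7.15% and CCAAT in 37.4% of all windows. No match was found in the Zic4 and Zic5 windows, which says only that these letters are not in them.

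Over the 2 days the Zic probes followed different courses. Zic2 was well above background throughout, highest on day 1 and still above its EpiSC level on day 2. Zic5 kept its EpiSC level through day 1 and then fell 3.1-fold. Of the Zic1 probes, A_51_P194230 became detectable on day 2 alone, while A_55_P2009774 was bright in every group and moved little. Zic4 was detected on no array. Values are processed intensities, the scanner software's background-subtracted spot brightness on a linear scale. Changes are differences of log2 intensity after subtraction of each array's 75th percentile, with the standard error (SE) of limma's moderated fit over 33536 probes and n = 2 arrays per group. A probe entered the fit if some group had both of its arrays well above background, which held for 4 of the 6 Zic probes.

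**Figure D1:**
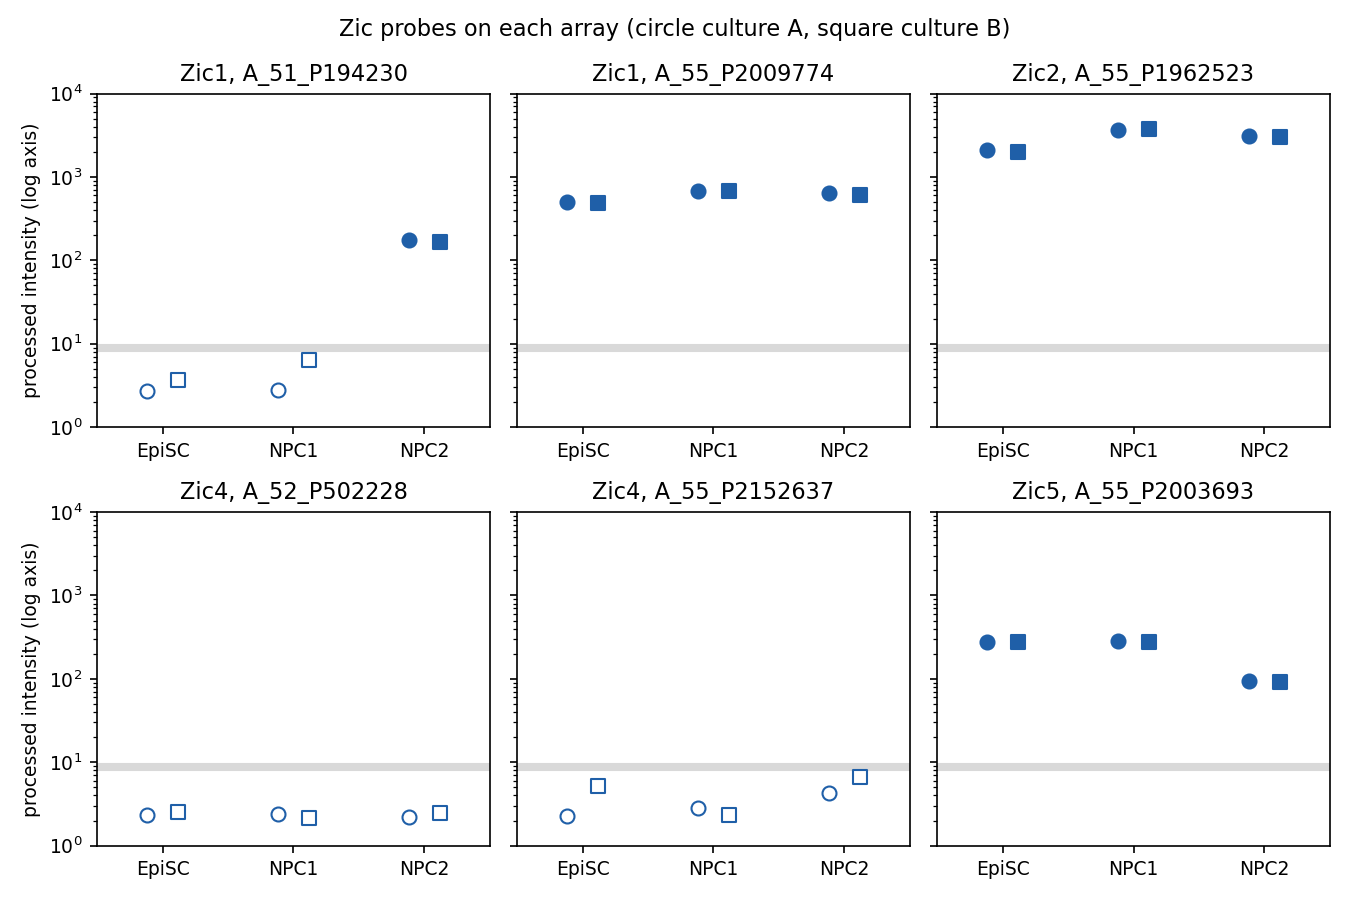
Processed intensity (log axis) of the 6 Zic probes on each array, by group; circles are culture A, squares culture B, filled symbols are well above background and the grey band is the range over arrays of the lowest signal well above background. A_51_P194230 of Zic1 lies under the band in EpiSC and NPC1 and at 166 and 173 in NPC2, and both Zic4 probes lie under it on all 6 arrays.

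Zic2, the family member tied to forebrain midline development, read 2129 and 1963 in EpiSC A and B. The NPC1 arrays read 3697 and 3717, and the NPC2 arrays 3135 and 2987. The 3 groups did not overlap, NPC1 being highest and EpiSC lowest. The rise on day 1 was 1.82-fold (log2 change 0.87 ± 0.070 SE, limma adjusted p = 0.0022), and the day 2 level stood 1.43-fold above EpiSC (log2 change 0.52 ± 0.070, adjusted p = 0.00354). Both passed the adjusted threshold of 0.05 under all 15 alternative settings. Among all tested probes, 6.0% rose more than Zic2 on day 1 and 18.4% stood higher against EpiSC on day 2. From day 1 to day 2 Zic2 fell 1.27-fold (log2 change -0.35 ± 0.070, adjusted p = 0.022). This fall did not pass in the authors' value table (adjusted p = 0.0684), when dim probes were also tested (adjusted p = 0.0738), or without NPC1 replicate A, NPC1 replicate B, NPC2 replicate A or NPC2 replicate B (adjusted p = 0.0826, 0.0546, 0.0761 and 0.104; range over all settings 0.0105 to 0.104).

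Zic5, the genomic partner of Zic2, read 279 and 273 in the EpiSC cultures and 280 and 276 in NPC1. In NPC2 it read 95.5 and 92.4, clear of both earlier groups, which overlapped each other. The day 1 change was 0.020 ± 0.063 (log2, adjusted p = 0.834), and its sign was negative under median scaling, with normexp background correction and without NPC1 replicate A. Against EpiSC the day 2 level was 3.07-fold lower (log2 change -1.62 ± 0.063, adjusted p = 0.000107), and against NPC1 3.11-fold lower (log2 change -1.64 ± 0.063, adjusted p = 0.000312). Both falls passed under all 15 alternatives, at log2 changes of -1.70 to -1.18 and -1.70 to -1.17. Of all tested probes 4.39% fell further than Zic5 against EpiSC, and 2.17% fell further between day 1 and day 2.

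Zic1, a gene of the dorsal neural tube and cerebellum, gave unlike readings with its 2 probes. Probe A_51_P194230 read 2.70 and 3.68 in EpiSC and 2.80 and 6.47 in NPC1, not well above background on any of these arrays. In NPC2 it read 173 and 166 and was well above background on both. The lowest signal marked well above background on an array was 8.12 to 9.57. Zic1 measured by this probe was at least 17.6-fold higher in NPC2 than in EpiSC (adjusted p = 0.000466) and at least 18.8-fold higher than in NPC1 (adjusted p = 0.00132). Such lower bounds replace a signal that was not well above background by the lowest signal that was on the same array, unless the probe's own reading exceeded it, before the group means are compared. The fitted log2 changes were 5.69 ± 0.40 and 5.25 ± 0.40, and 0.0954% and 0.0567% of tested probes rose more. These shares rest on readings that were not well above background, and were not computed at the lower bounds. With normexp correction and its offset of 50 the log2 changes were 1.84 and 1.75, still past the threshold. EpiSC and NPC1 overlapped, and no change is given between them. The probe entered the test through NPC2 alone.

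The other Zic1 probe, A_55_P2009774, read 499 and 485 in EpiSC, 670 and 687 in NPC1, and 641 and 608 in NPC2. All 3 groups lay apart, in the same order as those of Zic2, with EpiSC lowest and NPC1 highest. The day 1 rise was 1.39-fold (log2 change 0.47 ± 0.057, adjusted p = 0.00577), and NPC2 stood 1.21-fold above EpiSC (log2 change 0.28 ± 0.057, adjusted p = 0.0134). The fall from NPC1 to NPC2 did not pass (log2 change -0.19 ± 0.057, adjusted p = 0.0635), except when 1 probe per gene was tested (adjusted p = 0.0316, against up to 0.317 under the other settings). The comparison of NPC2 with EpiSC did not pass when dim probes were also tested (adjusted p = 0.0523), nor without EpiSC replicate A, EpiSC replicate B or NPC2 replicate A (adjusted p = 0.0522, 0.0758 and 0.0705). With the mean of both probes in place of the brighter one, Zic1 rose by 2.98 against EpiSC and by 2.53 against NPC1, and the day 1 rise did not pass (log2 change 0.46, adjusted p = 0.104). A Zic1 value from this array therefore depends on the probe. Zic genes are paralogs with a shared zinc-finger region; where on the transcripts the probes lie, and whether a probe also binds RNA of another Zic gene, was not tested.

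Zic4, the neighbour of Zic1, was read by A_52_P502228 at 2.13 to 2.52 over the 6 arrays, and all 3 groups overlapped. Its second probe, A_55_P2152637, read 2.26 and 5.25 in EpiSC, 2.80 and 2.35 in NPC1, and 4.26 and 6.72 in NPC2. None of these 12 readings was well above background, so no change is given, although both NPC2 readings of A_55_P2152637 lay above those of NPC1. Zic4 RNA was not detectable at this signal, including in NPC2, where probe A_51_P194230 of its neighbour Zic1 was detected.

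In all, 2 of the 4 tested Zic probes were called higher and 0 lower in NPC1 against EpiSC by limma, and the other two did not reach an unadjusted p of 0.05 either. Among all tested probes 16.0% were called higher and 17.3% lower, 33.3% together. In NPC2 against EpiSC, 3 Zic probes were called higher and 1 lower (background 23.9% and 30.7%, 54.5% together). Between NPC1 and NPC2, 1 was called higher and 2 lower (background 13.7% and 18.2%, 31.8% together). With so few probes, 2 of them of the same gene and 1 tested only because it was bright in NPC2, these shares say nothing about the family as a whole. The background's own direction depends on scaling: the lower share of called probes was 52.0%, 56.2% and 57.1% in the 3 comparisons, against 31.6%, 33.9% and 41.4% in the authors' value table and 66.6%, 63.9% and 54.5% under median scaling. Each called Zic change had the same direction under these scalings.

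**Figure D2:**
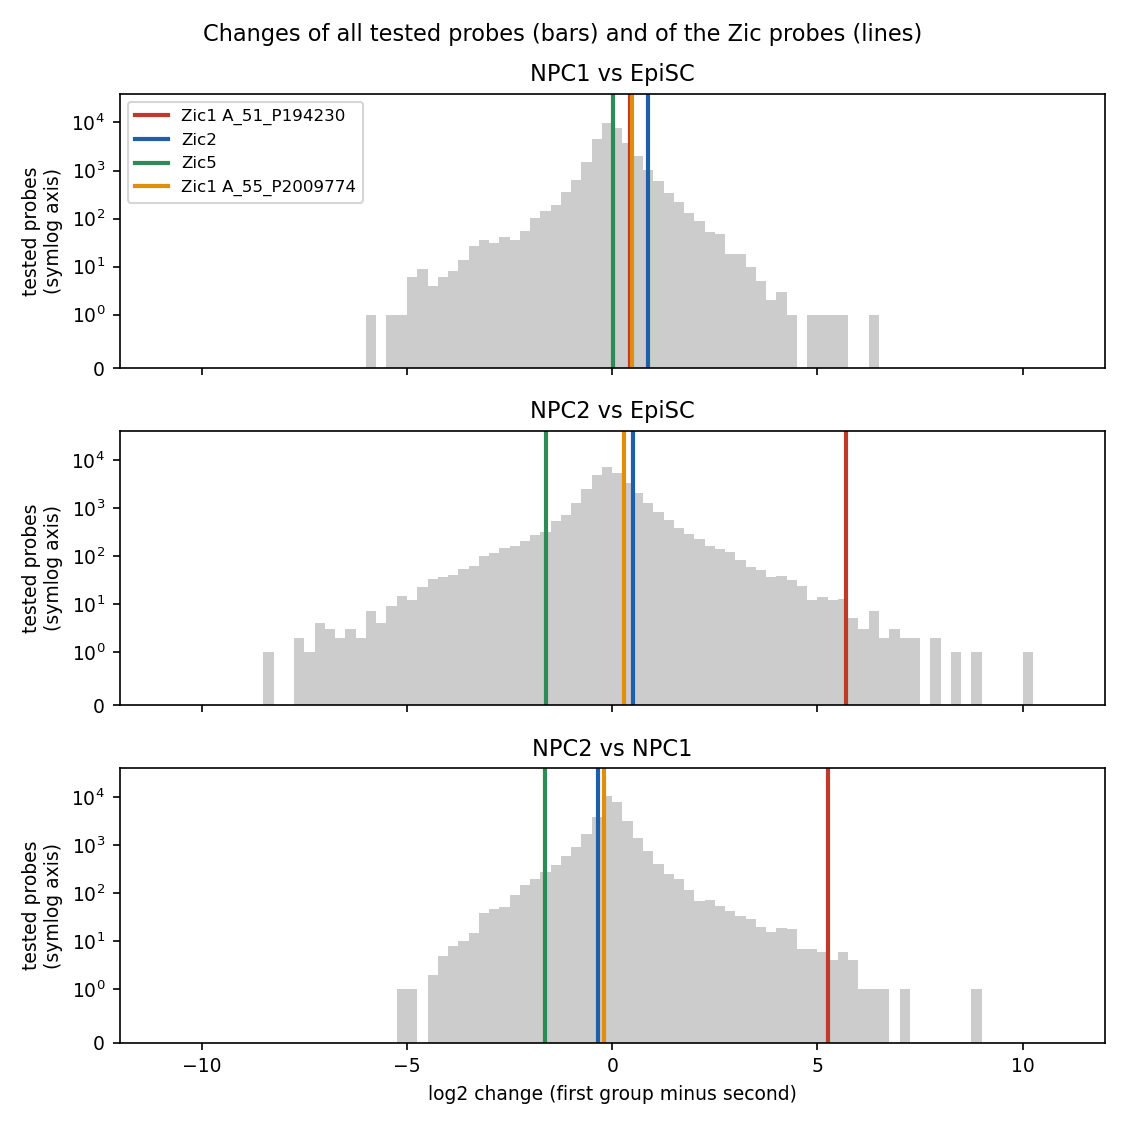
Log2 change (x axis) of all 33536 tested probes (grey bars, number of probes on a symmetric log axis) in each comparison, with the 4 tested Zic probes as vertical lines. Zic5 lies at -1.62 and -1.64 in the comparisons with NPC2, and Zic1 probe A_51_P194230 at 5.69 and 5.25; its line in NPC1 against EpiSC rests on readings that were not well above background.

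Differences between probes within an array do not depend on how arrays are scaled against each other by a constant. Relative to Zic5, Zic2 gained 0.85 in log2 from EpiSC to NPC1 (SD of the arrays 0.024 and 0.060, n = 2 each) and 2.14 from EpiSC to NPC2, a 4.40-fold change in the ratio of these genomic partners. Each NPC1 array lay above both EpiSC arrays and each NPC2 array above both NPC1 arrays. Relative to Zic2, Zic1 probe A_55_P2009774 changed by -0.39 from EpiSC to NPC1 and by -0.24 from EpiSC to NPC2, so these probes did not change by equal amounts. With 2 arrays against 2 the smallest two-sided p of an exact permutation test is 0.333, which is what each of these comparisons gave. Quantile normalization moved the Zic2 to Zic5 gain on day 2 to 2.33 and normexp correction to 1.70.

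**Figure D3:**
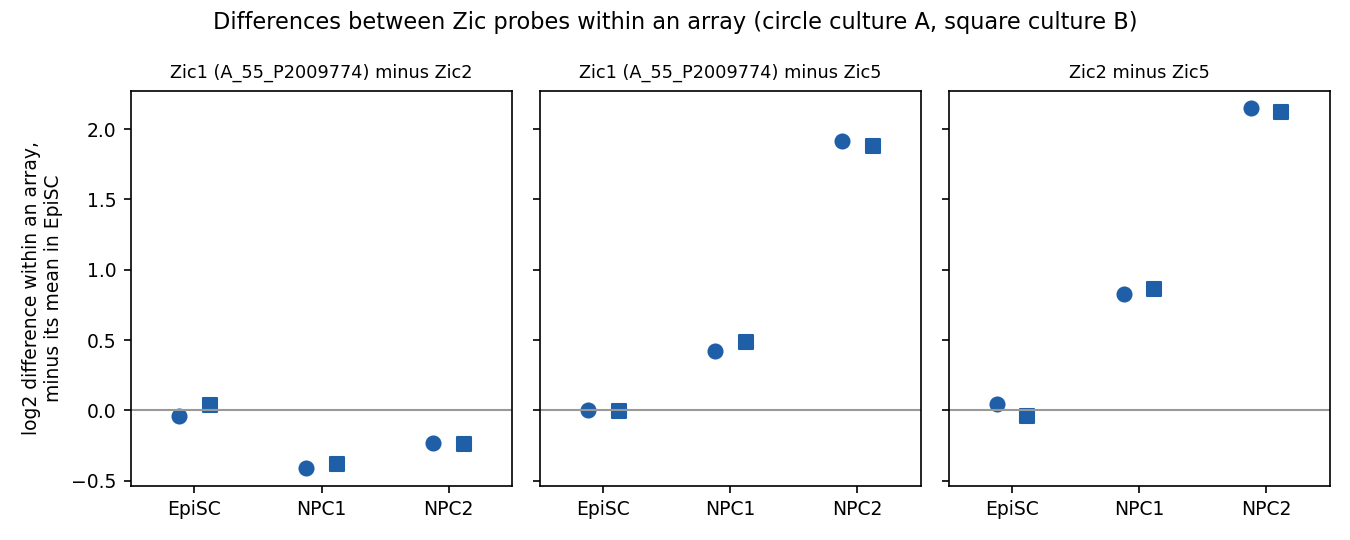
Log2 difference between pairs of Zic probes within each array, minus its mean over the EpiSC arrays, by group; circles are culture A and squares culture B. Zic2 minus Zic5 is 0.83 and 0.86 in NPC1 and 2.15 and 2.13 in NPC2, while Zic1 (A_55_P2009774) minus Zic2 is between -0.41 and -0.23 in both.

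The likeness of other genes to each member was measured as the root mean square difference between centred log2 values over the 6 arrays, among 13546 other genes well above background on every array. The genes most like Zic2 were Gal3st1 (0.029), Unc5a (0.031), which encodes a netrin receptor, and Iqgap1 (0.040), a scaffold protein gene. Gal3st1 rose by 0.88 on day 1 and stood at 0.57 on day 2 against EpiSC. Closest to Zic5 were Igfbp6 (0.027), which encodes an insulin-like growth factor binding protein, Sct (0.045), the secretin gene, and Sec14l4 (0.053); Igfbp6 changed by 0.0081 on day 1 and fell by 1.63 on day 2. For Zic1 probe A_55_P2009774 they were Nipsnap2 (0.017), Rapgef2 (0.029) and Hadh (0.033), the last a gene of fatty acid oxidation. A distance under 0.25 was shared by 833 genes with Zic2, by 188 with Zic5 and by 4612 with that Zic1 probe, whose changes were small. In the order of likeness to Zic2, Zic1 stood at place 174 and Zic5 at 12603. The neighbours Zic2 and Zic5 were thus far apart by this measure, and Zic4 could not be placed. Beyond Zic2 in the gene order lies Pcca, a mitochondrial carboxylase gene, which rose on day 1 (0.45, adjusted p = 0.0106) and stayed above EpiSC on day 2 (0.40, adjusted p = 0.00721).

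Genes of the dorsal neural tube and plate border, the region where Zic1 is known to be expressed, were mostly higher on day 2 than before, though not all rose on the same day. Each gene is represented here and below by its brightest tested probe, for which 26.4% of 14773 genes were called higher and 38.1% lower in NPC2 against EpiSC. Of 15 listed dorsal genes 13 were tested, and 11 were higher and 0 lower in NPC2 than in EpiSC, with a median log2 change of 2.27 (all genes -0.0982). Of these, 4 (Pax3, Pax7, Lmx1a and Msx3) entered the test through NPC2 alone and so could hardly come out lower, as for Zic1 probe A_51_P194230. Among the other 9 genes, 7 were higher and 0 lower, with a median of 2.09. The pair not called consisted of Gdf7 (0.43 ± 0.21) and Dlx5 (1.08 ± 0.50), both named after their values were seen. Pax3, a paired-box factor gene of the dorsal neural tube, read 11.5 and 9.36 in EpiSC, 9.99 and 9.46 in NPC1, and 404 and 389 in NPC2, 36.5-fold above EpiSC, where 1 of 2 arrays was well above background (adjusted p = 4.29e-05). Its close relative Pax7 read 3.84 and 6.66, 4.54 and 3.07, and 134 and 135, and was at least 13.9-fold higher in NPC2 than in EpiSC (adjusted p = 0.000522). Like Zic1 probe A_51_P194230, both were near or under the detection level on the 4 earlier arrays and bright on both NPC2 arrays. Lmx1a, a roof plate gene, was at least 35.3-fold higher, and Gbx2, a gene of the hindbrain side of the midbrain boundary, 19.6-fold. Gbx2 rose on both days, 4.93-fold to NPC1 and 3.97-fold from there, and its listed fellow Lmx1b mostly on the first (2.94-fold and then 1.45-fold). Msx1, a target of BMP signalling, read 43.1 and 47.0 in EpiSC, 27.2 and 27.0 in NPC1, and 525 and 577 in NPC2. In NPC1 against EpiSC 2 of the 13 were called higher and 1 lower (background 18.0% and 24.1%; median 0.17, all genes -0.0541). Between NPC1 and NPC2, 11 were called higher and 0 lower (background 17.7% and 22.4%; median 1.99, all genes -0.0429). Over the alternatives 7 to 12 were called higher and 0 lower in NPC2 against either group. The filters on dim probes also change how many listed genes are tested, so these counts are not all out of 13.

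**Figure D4:**
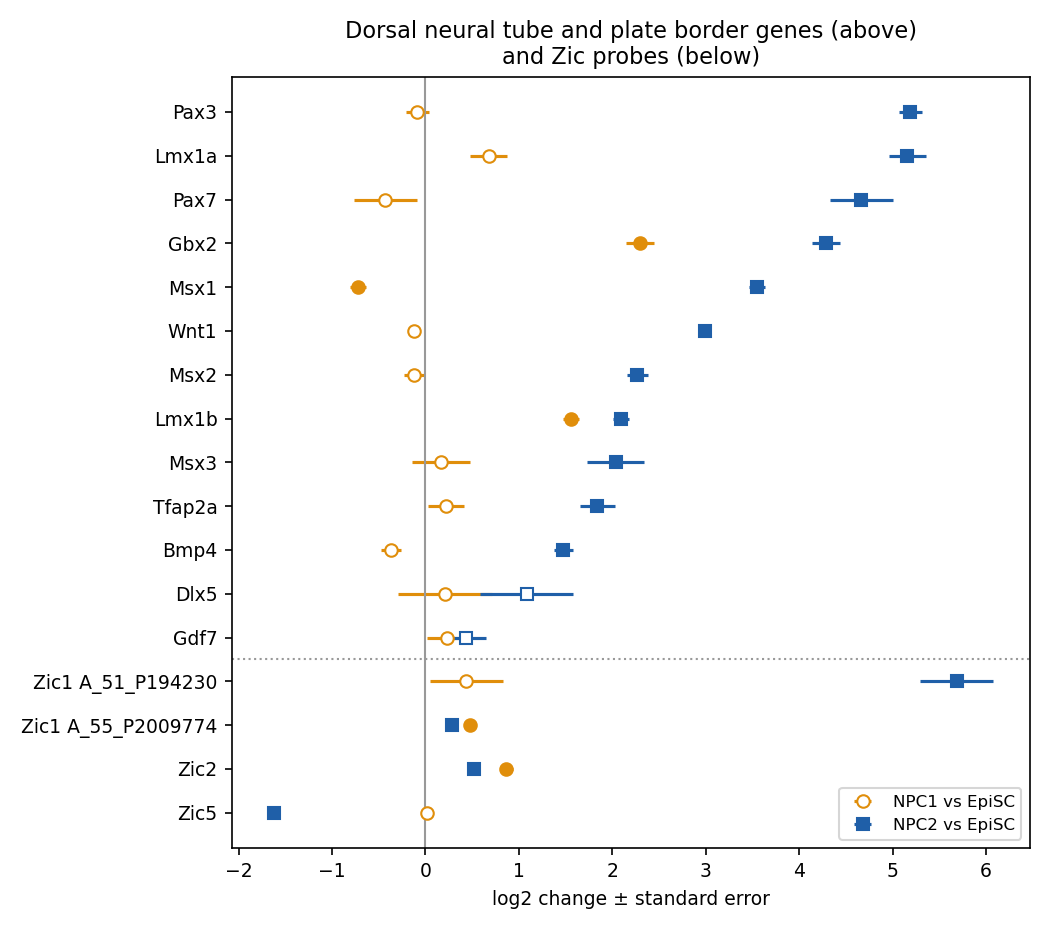
Log2 change with its SE (x axis) in NPC1 (circles) and NPC2 (squares) against EpiSC, for 13 tested dorsal neural tube and plate border genes and 4 Zic probes; filled symbols passed an adjusted p of 0.05. Pax3, Lmx1a and Pax7 lie between 4.67 and 5.19 in NPC2 and Zic1 probe A_51_P194230 at 5.69, while Zic2 and Zic1 probe A_55_P2009774 lie under 1 on both days. Pax3, Lmx1a, Pax7 and A_51_P194230 entered the test through NPC2 alone and so could hardly come out lower. Their changes rest on EpiSC readings near or under the detection level.

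Among genes that studies in other tissues have tied to Zic factors, 8 of 12 were tested. In NPC2 against EpiSC 4 were higher and 2 lower (median 0.60, background 26.4% and 38.1%), where Pax3 entered the test through NPC2 alone and Aldh1a3, called lower, through EpiSC alone. Besides Pax3, these were led by Ephb1, an ephrin receptor gene activated by Zic2 in retinal axons, which read 20.1 and 31.7 in EpiSC, 302 and 334 in NPC1, and 821 and 869 in NPC2. It was 12.7-fold higher on day 1 (adjusted p = 0.00114) and 32.0-fold higher on day 2 (adjusted p = 0.000141), rising on both steps where Zic2 rose on the first alone. Crabp2, which encodes a retinoic acid binding protein, rose 6.04-fold and then to 22.5-fold. Foxd3, a pluripotency and neural crest factor gene, fell 2.95-fold on day 1 and stood 17.1-fold lower on day 2 (adjusted p = 0.000204). In NPC1 3 of the 8 were higher and 1 lower (median 0.035, background 18.0% and 24.1%).

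Relatives of the Zic genes changed in unlike directions. Of the 6 Gli and Glis genes, whose zinc fingers resemble those of Zic proteins, 5 were tested. In NPC2 against EpiSC 3 were higher and 1 lower (median 0.49, background 26.4% and 38.1%). Gli2, an effector of Hedgehog signalling, rose 1.83-fold on day 1 and 4.20-fold by day 2 (adjusted p = 7.1e-05). Gli3, another effector, was 1.88-fold higher by day 2, and Glis2 1.90-fold lower. Gli1, itself a Hedgehog target, fell 1.48-fold on day 1 and then rose 2.07-fold, ending 1.40-fold above EpiSC (adjusted p = 0.0221). In NPC1 2 were higher and 2 lower (median 0.094, background 18.0% and 24.1%).

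All 10 listed genes for proteins reported to bind or regulate Zic proteins were tested. Of these, 1 was higher and 3 were lower in NPC2 than in EpiSC (median -0.14, background 26.4% and 38.1%). Prkdc, the DNA-dependent protein kinase gene, was 1.61-fold higher (adjusted p = 0.000747). Mdfic, a relative of the myogenic inhibitor gene Mdfi, was 1.64-fold lower (adjusted p = 0.00137), and Mbd3, a subunit gene of the NuRD repressor complex, 1.40-fold lower (adjusted p = 0.00187). These changes are small, and over the alternatives the counts ranged from 1 to 3 higher and 2 to 5 lower. In NPC1 1 was higher and 3 lower (median -0.11, background 18.0% and 24.1%).

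Holoprosencephaly genes, the group to which Zic2 belongs, split between rises and falls. Of 13 tested of 14, in NPC2 against EpiSC, 7 were higher and 4 lower (background 26.4% and 38.1%). Their median was 0.28, and below 0 in part of the alternatives. Tdgf1, the Nodal co-receptor gene, was 135-fold lower, and Nodal 17.1-fold lower. Dll1, a Notch ligand gene, was at least 26.6-fold higher, and Six3, a forebrain factor gene tested through NPC2 alone, at least 3.25-fold higher. In NPC1 4 were higher and 4 lower (median 0.073, background 18.0% and 24.1%). All 15 listed transcription factors of the epiblast and anterior neural plate were tested. In NPC2 13 were higher and 2 lower (median 1.33, background 26.4% and 38.1%). In NPC1 7 were higher and 2 lower (median 0.48, background 18.0% and 24.1%). Six3 and Pax6, both called higher in NPC2, entered the test through NPC2 alone. Sox1, an early neural plate factor gene, was 6.74-fold higher on day 1 and 52.7-fold on day 2. In NPC2 against EpiSC Lhx5 was at least 73.3-fold, Hesx1 19.0-fold and Lhx2 9.45-fold higher. Otx2, a forebrain and midbrain factor gene, changed by 0.18 ± 0.065 on day 1 (adjusted p = 0.0967) and rose 1.71-fold by day 2. Pou5f1, which encodes Oct4, fell 1.73-fold and then to 6.32-fold below EpiSC, so that Zic5 and Pou5f1 were both lower on day 2 while Zic2 was above its EpiSC level.

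All 5 EpiSC markers (Pou5f1, Nanog, Fgf5, Tdgf1 and Dnmt3b) were well above background on every array, and their summed intensity was 120126 and 124447 in EpiSC, 83871 and 93293 in NPC1, and 42900 and 43988 in NPC2. Most of this sum was Dnmt3b (77422 and 78478 in EpiSC) and Pou5f1, and in NPC2 4 of the 5 were called lower, while Nanog was 1.31-fold higher in NPC1 and 1.76-fold higher in NPC2 (adjusted p = 0.0106 and 0.000525). Neural plate markers summed to 3362 to 3380, 4899 to 5319 and 16210 to 16839. Cdh2 made up most of this sum in EpiSC (2210 and 2192) and in NPC2 (9219 and 8648). Against EpiSC, 4 of the 5 were called higher in NPC1 and 5 in NPC2 (background 18.0% and 26.4%). Cdh2 was the marker not called in NPC1 (limma adjusted p = 0.186). Of 7 fibroblast and feeder markers 6 were well above background on every array. The list summed to 2906 to 3067 in EpiSC, 3797 to 3893 in NPC1 and 4819 to 5090 in NPC2. In NPC2 against EpiSC 2 of the 6 tested were called higher (Col1a2, 2.66-fold, and Thy1, 1.44-fold). Twist2 was 2.81-fold lower, and the median log2 change was 0.070. Surface ectoderm and neural crest markers (7 of 7 above background) summed to 62751 to 66019, 51034 to 51600 and 21112 to 22843. That fall was largely the keratin gene Krt18 (50324 and 53608 in EpiSC). Single members of this list differed in direction, with 2 of the 7 called higher and 3 lower in NPC2 against EpiSC. The neural crest and border genes Tfap2a and Sox10 were 3.58-fold and 1.84-fold higher (limma adjusted p = 0.00149 and 0.00516). Foxd3, also a neural crest gene, was 17.1-fold lower (limma adjusted p = 0.000204). Summed neuronal markers were highest in NPC1 (11558 to 11799), endoderm markers in EpiSC (2159 to 2249), and those of the primitive streak and mesoderm also in EpiSC (6924 to 7161). In each of these groups a single bright gene made up most of the sum, though not necessarily of its change between groups. Stmn2 read 7379 and 7830 in NPC1. Of the 5 tested neuronal markers, 3 were called higher and 1 lower in NPC1 than in EpiSC (background 18.0% and 24.1%). Tubb3 was 4.35-fold, Elavl3 2.03-fold and Stmn2 1.32-fold higher, and Dcx was 2.05-fold lower. Of the 5 tested streak and mesoderm markers, 3 were called lower and 1 higher in NPC2 than in EpiSC (background 38.1% and 26.4%). T was 23.3-fold and Eomes 17.0-fold lower. Mixl1, which entered the test through EpiSC alone, was at least 4.58-fold lower. Kdr read 4048 and 3981 in EpiSC and was called in no comparison, and Tbx6 was 1.41-fold higher in NPC2 than in EpiSC. Foxa2, the brightest endoderm marker in EpiSC, rose 4.64-fold from NPC1 to NPC2, still under its EpiSC level. The part of these other cell types in the Zic values was not tested. Between 58.2% and 61.1% of spots were well above background on an array and 0 were saturated, and duplicates correlated at r = 0.9963 to 0.9965 across probes, which are not independent replicates.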

How the data were processed

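Total RNA of 6 cultures was labelled with Cy3 and read on Agilent arrays of design 028005, 2 per group. Per the file headers, Feature Extraction 10.10.1.1 subtracted the background and a spatial trend from each spot to give the processed intensity, which the authors deposited in the scanner files with no scaling between arrays. The separate value table deposited by the authors is that intensity times 1 constant per array (2.10 to 2.41), linear and uncentred, with medians of 52.5 and 51.3 (EpiSC A and B), 61.8 and 59.6 (NPC1) and 65.3 and 64.3 (NPC2); the basis of the constant is unknown. Flags for signal well above background came from the same software.

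Control spots (3671) and outlier spots were removed, which lost 35 probes. Spots of a probe were averaged, giving 55646 probes, of which 26744 were named through RefSeq accessions with the GRCm38.p6 gene table, used for names and gene order; 28902 stayed unnamed. The values tested were log2 intensity minus the array's 75th percentile, in 1 limma 3.58.1 fit (R 4.3.3, lmFit and eBayes, two-sided, 3 residual and 1.7 prior degrees of freedom) of all 6 arrays, with Benjamini-Hochberg adjustment over 33536 probes at 0.05. The script was tested on simulated data. All arrays shared 1 slide and 1 scan, so no slide block could be fitted. The number of arrays limits the precision, and so does signal near the background.

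The members and gene lists were chosen with earlier results of these data known. Text names every Zic probe, the 3 genes most like each member detected on all arrays, and Sox1, Pou5f1 and Otx2. From each list it names some of the called genes with the largest change, where the plan was up to 4 per comparison. Further list and marker genes were named after their values were seen. Samples were not paired by replicate letter in the main fit. The alternatives were median scaling, quantile normalization, normexp on the median signal (the mean signal is not used here), the authors' table, both filters on dim probes, 1 probe or the probe mean per gene, a replicate block and leaving out each array. Those on differences within an array were chosen after seeing the data.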

Additional observations from a re-analysis of the deposited data

How the results depend on the processing

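The rise of Zic2 on day 1, its day 2 level against EpiSC, both falls of Zic5 and both rises of Zic1 probe A_51_P194230 kept their direction and call under every alternative that tested them. The remaining Zic values did not. The day 1 change of Zic5 was -0.079 under median scaling and -0.0094 with normexp, and -0.037 to 0.077 without 1 array at a time. That of Zic1 probe A_51_P194230, dim in both groups, was -0.12 to 1.00 without 1 array. Averaging the Zic1 probes turned the change from NPC1 to NPC2 to 2.53 and left 1 Zic probe called higher on day 1. Testing only probes above background on all 6 arrays, or 1 probe per gene, left out A_51_P194230, so that 0 Zic probes were called higher by limma between NPC1 and NPC2 (0 also at an unadjusted p of 0.05). In that comparison 1 was called lower in the authors' table and without a filter, and 1 to 2 without 1 array.

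Counts of all called probes were 6507 and 6908 without a filter on dim probes (NPC1 against EpiSC, NPC2 against NPC1), against 11183 and 10679. With 1 probe per gene they were 7434, 10196 and 7013, and with the probe mean 7371, 10185 and 6981 (main value for NPC2 against EpiSC 18285), as fewer features were tested. Without 1 array they were 5673 to 9129 (5673, 6167 and 7206 without EpiSC replicate B, EpiSC replicate A and NPC1 replicate A) and 6379 to 8804 (6379 and 6498 without NPC2 replicate B and NPC2 replicate A). With the replicate block 9459, 17311 and 9038 probes passed, and no Zic call changed. Deviations of same-lettered arrays correlated at -0.051 to 0.032. These values show no broad shift shared by a letter, and cannot show whether same-lettered cultures were handled together. Median scaling put the median change of all tested probes at -0.11, -0.14 and -0.029, and the authors' table at 0.11, 0.17 and 0.055. Probes near the background, such as those of Zic4, have no measured level here.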

Other observations

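Zic1 probe A_55_P2009774 and the Zic2 probe moved in the same order on all arrays, the log2 change of the first being 54.6%, 54.1% and 55.3% of the second's in the 3 comparisons. This share depended on the scaling, from 37.4% to 67.9% over 4 other versions of the values, and what it reflects was not tested. The other Zic1 probe did not share this course.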
